A study of Mus musculus with 2 samples.

Results

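The genes described here are 10 markers and homeostatic genes of astrocytes: Gfap, Aqp4, Slc1a2, Slc1a3, Aldh1l1, Aldoc, Glul, S100b, Fgfbp3 and Slc4a4. They were taken by gene name from a deposited table of 51826 genes, in which each has 1 row, together with their 52 transcripts out of 128622. Spinal cord RNA of C57BL/6 mice at postnatal day 7 was sequenced as 1 library of Olig1-Cre mice with Secisbp2l floxed at exon 3 (cKO) and 1 library of wild type mice (WT). Secisbp2l is a relative of Secisbp2, whose product acts in selenocysteine incorporation, and Olig1-Cre drives recombination in the Olig1 lineage, chiefly oligodendrocytes and their precursors. How many astrocytes recombined was not measured here, and the RNA is of whole cord. The labels do not give the number of animals per library.

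Astrocytes take up the glutamate released at synapses, convert it to glutamine, buffer water, potassium and bicarbonate, and cover blood vessels with their endfeet. Around birth and in the following weeks they mature from progenitors that resemble radial glia. Several of the genes are also active in other cells: S100b and Glul in oligodendrocytes, Aqp4 and S100b in ependyma, Slc1a3 in radial glia, Aldoc in some neurons. In RNA of whole tissue, fewer cells of a type and less RNA per cell cannot be told apart.

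The cKO library held 55179026 estimated counts and the WT library 42875143, about 2 counts to a sequenced fragment. Levels are given as CPM, counts scaled to TMM-adjusted library sizes, or, between genes, as the authors' TPM, which takes transcript length into account. With 1 library per group there is no replicate check of any difference, and no p-value is given. The intervals of ratios are 95% exact (Clopper-Pearson) intervals for counting error only. The libraries also differed in sex-linked genes, with 13 counts of Xist in cKO and 35182 in WT. The Y-linked Ddx3y had 4280 counts in cKO and 0 in WT, so genotype and sex cannot be told apart in any comparison. The WT label names no Cre, so the Olig1-Cre allele and the loss of Secisbp2l cannot be told apart either. Secisbp2l itself had 466 CPM in cKO and 588 CPM in WT (log2 ratio -0.34), a value for the whole transcript that does not check the deletion of exon 3. All 10 astrocyte genes are autosomal and stood far above the floor of 3 fragments (0.109 CPM in cKO and 0.140 CPM in WT), the lowest value being 327 counts of Fgfbp3 in cKO.

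The astrocyte genes were close between the libraries, apart from 2 that were lower in cKO. On the log2 scale the ratio (cKO over WT) was -0.47 for S100b and -0.51 for Fgfbp3, while the other 8 genes lay between -0.14 (Aqp4) and 0.16 (Slc1a3). None of the 10 genes met the size limit used for calls, a ratio of 1.5-fold or more whose interval does not contain equality, which 5.84% of the 15917 measured genes (mean of at least 1 CPM) met. With a looser limit of 0.32 on the log2 scale, 2 of the 10 passed, S100b and Fgfbp3, both lower in cKO, where 7.82% of measured genes were lower and 6.22% higher. At 2-fold 0 of the 10 passed, and 1.97% of measured genes did. The median log2 ratio of the 10 genes was -0.05, against 0.01 over all measured genes, and their summed level was 6708 CPM in cKO and 6892 CPM in WT. Of the 10, 4 had a ratio above 0 and 6 below, and 52.3% of measured genes had one above 0. By counting error alone, 3 genes had intervals wholly above equality and 6 wholly below. Such intervals are narrow for deeply counted genes, and 40.3% of measured genes had one clear of equality, 21.9% above and 18.4% below.

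**Figure D1:**
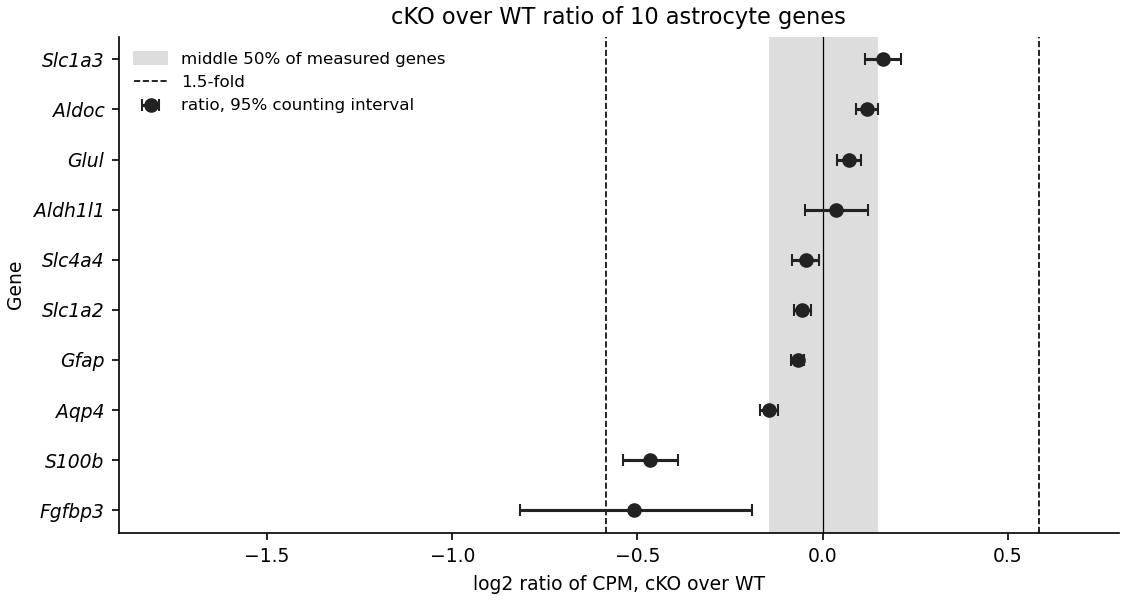
Horizontal axis, log2 ratio of CPM of cKO over WT for each gene, with bars for the 95% exact counting interval (1 library per group). The grey band holds the middle 50% of the 15917 measured genes, from -0.14 to 0.15, and the dashed lines mark 1.5-fold. S100b and Fgfbp3 lie apart from the other 8 genes but inside the lines.

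Per length, the order of the genes was led by Gfap in both libraries. Gfap stood at 1733 TPM in cKO and 1772 TPM in WT, and Aldoc, the second of the order, at 691 TPM in cKO and 623 TPM in WT. Fgfbp3 was the lowest, with 7.64 TPM in cKO and 10.6 TPM in WT. Between these extremes 5 genes changed place: Glul stood above Aqp4 in cKO and below it in WT, and S100b was the seventh in cKO at 161 TPM and the sixth in WT at 217 TPM. Slc1a3, at 166 TPM in cKO and 143 TPM in WT, stood above S100b and Slc4a4 in cKO and below both in WT. Slc1a2 kept the fifth place and Aldh1l1 the ninth. Only 0.0695% of all listed genes in cKO and 0.0637% in WT had a higher TPM than Gfap. Without replicates, none of these changes of place can be set against a spread between samples.

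**Figure D2:**
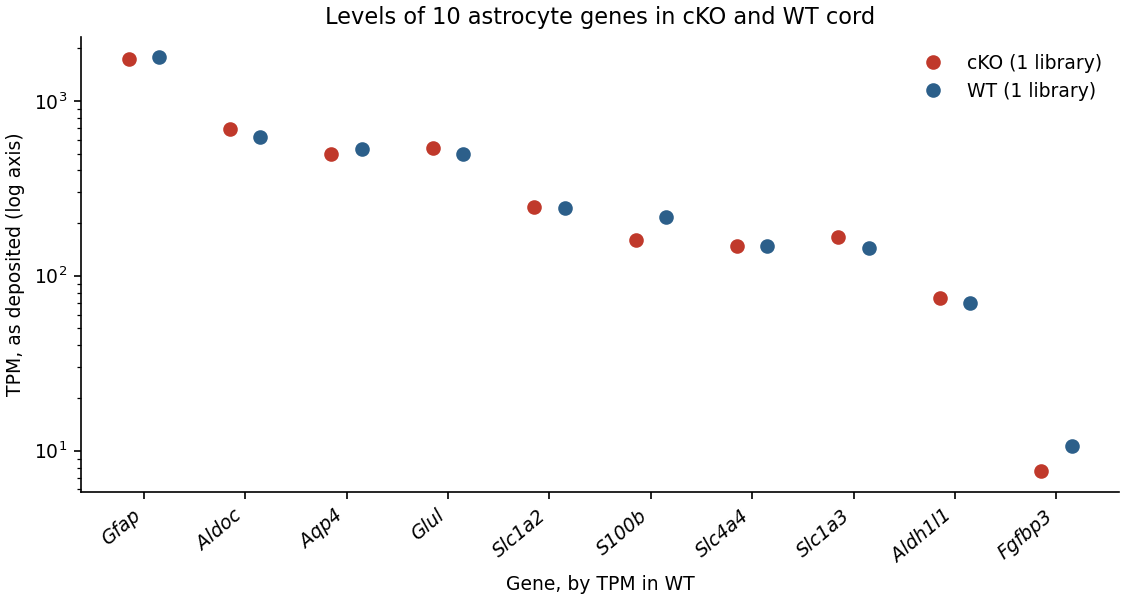
Vertical axis, TPM as deposited by the authors (log axis), for each of the 10 genes in the cKO library (red, left) and the WT library (blue, right). Genes are ordered by TPM in WT, from Gfap at 1772 to Fgfbp3 at 10.6, and the points of a pair lie furthest apart for S100b and Fgfbp3.

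Gfap, the main intermediate filament protein of astrocytes, had 110115 counts in cKO and 89749 in WT, or 1997 CPM in cKO and 2092 CPM in WT. The log2 ratio was -0.07 (interval -0.09 to -0.05), a difference of 1.05-fold. Gfap (ENSMUSG00000020932) is a minus-strand gene of chromosome 11 (GRCm38, 102887336 to 102900912). Its main transcript, Gfap-201, held 96.2% of the counts in cKO and 96.3% in WT. Gfap-202 ends in another last coding exon, and encodes the tail known as GFAP-delta, a form described in astrocyte-like progenitors. It held 3.83% of the counts in cKO (Wilson interval 3.67% to 3.99%) and 3.69% in WT (3.52% to 3.86%), so the shares of the 2 tails overlapped within counting error. Both transcripts share their first 1162 coding bases, after which Gfap-201 has 128 and Gfap-202 has 122 of its own.

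Aqp4 and Slc4a4 move water and ions across the astrocyte membrane. Aqp4, the water channel of endfeet, had 60574 counts in cKO and 52084 in WT. Its level was 1098 CPM in cKO and 1214 CPM in WT, a log2 ratio of -0.14 (interval -0.17 to -0.12), or 1.11-fold lower in cKO. Aqp4 was the lowest of the 8 genes that lay close together, and 24.7% of measured genes had a lower ratio. The gene (ENSMUSG00000024411) lies on chromosome 18, at 15389394 to 15403684 on the minus strand, and the deposited table gives it the 1 transcript Aqp4-201. The forms of Aqp4 that differ in their first exons are therefore not separated in these values.

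Slc4a4, the sodium bicarbonate cotransporter NBCe1 through which astrocytes regulate pH, was almost level. It had 26076 counts in cKO and 20938 in WT, or 473 CPM in cKO and 488 CPM in WT. The log2 ratio was -0.05 (interval -0.08 to -0.01), with the other sign on the authors' TPM (0.01). Slc4a4 (ENSMUSG00000060961, chromosome 5, plus strand, 88886818 to 89239653) has 8 transcripts in the table, of which Slc4a4-207 held 93.8% of the counts in cKO and 94.6% in WT, and Slc4a4-208 held 5.53% in cKO and 4.97% in WT. Transcripts that begin at the internal start near 89027966, the start of the form typical of kidney, had 13 counts in cKO and 7 in WT, or 0.0499% of the gene in cKO and 0.0334% in WT. Counts this small are raised by rounding up in each transcript.

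The genes of glutamate uptake and conversion differed in direction by small amounts. Slc1a2, which encodes GLT-1, the main glutamate transporter of mature astrocytes, had 65745 counts in cKO and 53134 in WT, or 1192 CPM in cKO and 1238 CPM in WT. The log2 ratio was -0.05 (interval -0.08 to -0.03), and 0.02 on the authors' TPM. Slc1a3, which encodes GLAST, the transporter that radial glia and young astrocytes carry, had 16775 counts in cKO and 11651 in WT. Its level of 304 CPM in cKO and 272 CPM in WT gave the highest ratio of the 10 genes, 0.16 (interval 0.12 to 0.21), and 77.2% of measured genes had a lower one. Per length and over all transcripts of each gene, Slc1a2 stood at 1.49 times Slc1a3 in cKO and 1.69 times in WT. The Slc1a3 total includes a transcript without coding sequence, Slc1a3-202, at 62.7 TPM in cKO and 57.5 TPM in WT. The ratio is therefore not one of coding mRNA alone. Glul, glutamine synthetase, turns glutamate and ammonia into glutamine, and had 35470 counts in cKO and 26251 in WT. Its level was 643 CPM in cKO and 612 CPM in WT, with a log2 ratio of 0.07 (interval 0.04 to 0.10). Mature oligodendrocytes of the cord are also known to carry Glul, and 15 of 16 mature oligodendrocyte markers were lower by the 1.5-fold rule in the same libraries. The part of oligodendrocytes in the value of Glul was not tested. Of all measured genes, 3.39% were lower by that rule.

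Transcripts of the transporters were divided as follows. Slc1a2 (ENSMUSG00000005089, chromosome 2, plus strand, 102658659 to 102790784) was counted almost wholly in Slc1a2-202, of 11595 nt, with 99.6% in cKO and 99.9% in WT. The 3 transcripts that begin near 102706438 had 47 counts in cKO and 3 in WT, or 0.0715% of the gene in cKO and 0.00565% in WT. The log2 ratio was 3.61 with a wide interval, 1.21 to 6.35. The WT value is under the floor of 3 fragments, and counts this small are raised by rounding up in each transcript. Slc1a2-204, whose coding sequence is 1683 nt against 1716 nt in Slc1a2-202, had 161 counts in cKO and 42 in WT (log2 ratio 1.58, interval 0.86 to 2.34). Slc1a2-204 held 0.245% of the gene in cKO and 0.0790% in WT. These minor transcripts were named after their values were seen. Reads of sequence that they share with Slc1a2-202 can be given to either by the authors' estimate, and the intervals do not cover that error. Slc1a3 (ENSMUSG00000005360, chromosome 15, minus strand, 8634124 to 8710764) was the only one of the 10 genes with 2 transcripts above 10% of the counts. The coding Slc1a3-201 held 59.6% in cKO (Wilson interval 58.5% to 60.6%) and 57.8% in WT (56.5% to 59.0%). Slc1a3-202, annotated as a retained intron without coding sequence, held 39.9% in cKO and 42.0% in WT. It lies within the span of Slc1a3-201, so reads of shared sequence can be given to either by the authors' estimate. The intervals do not cover the error of that division. The log2 ratio was 0.21 (interval 0.15 to 0.27) for Slc1a3-201 and 0.09 (interval 0.01 to 0.16) for Slc1a3-202, so these intervals overlapped. Glul (ENSMUSG00000026473, chromosome 1, plus strand, 153899944 to 153909723) had 99.7% of its counts in cKO and 99.8% in WT in Glul-201. An antisense gene, Teddm2, overlaps exons of Glul with 68 counts in cKO and 49 in WT, and the microRNA gene Mir8114 lies in an exon on the same strand with 798 counts in cKO and 662 in WT. As the strand setting is not given, reads of Glul and of these genes cannot be told apart where they overlap.

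**Figure D3:**
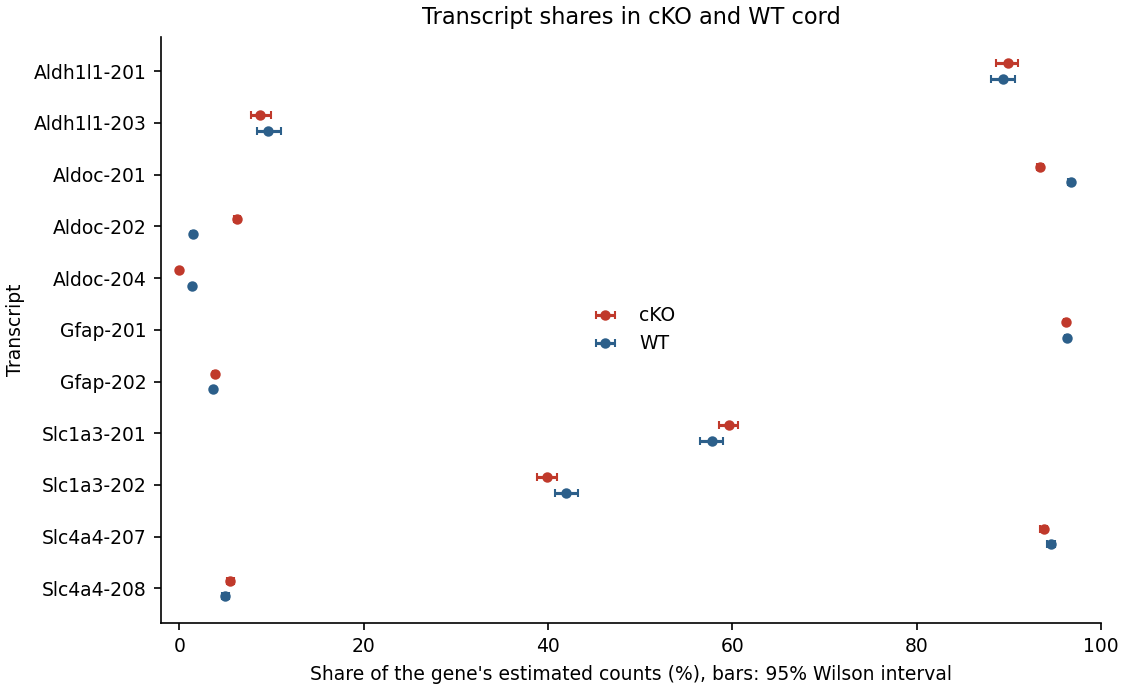
Horizontal axis, share of a gene's estimated counts held by each transcript (%), with bars for the 95% Wilson interval, in the cKO library (red, upper point) and the WT library (blue, lower point). Transcripts with at least 1% in a library are drawn for the 5 genes with more than 1 such transcript. The points of a pair lie furthest apart for Aldoc-202 and Aldoc-201.

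Of the metabolic enzymes, Aldh1l1 was level within counting error and Aldoc was slightly higher in cKO. Aldh1l1, a folate enzyme that oxidises formyltetrahydrofolate and is widely used as a pan-astrocyte marker, had 5327 counts in cKO and 4038 in WT. Its level was 96.6 CPM in cKO and 94.1 CPM in WT, and its log2 ratio of 0.04 was the only one of the 10 whose interval held 0 (-0.05 to 0.12). Aldh1l1 (ENSMUSG00000030088) lies on the plus strand of chromosome 6, at 90486427 to 90600203. Aldh1l1-201 held 89.9% of its counts in cKO and 89.4% in WT, and Aldh1l1-203, which has the same 2706 coding bases and other ends, held 8.77% in cKO and 9.63% in WT.

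Aldoc, the brain aldolase of glycolysis, also known as zebrin II, had 43735 counts in cKO and 31288 in WT. It stood at 793 CPM in cKO and 729 CPM in WT, a log2 ratio of 0.12 (interval 0.09 to 0.15). Aldoa, the aldolase of muscle and many other cells, had a ratio of -0.09, so per length the level of Aldoc was 0.966 times that of Aldoa in cKO and 0.837 times in WT. The gene (ENSMUSG00000017390, chromosome 11, plus strand, 78322968 to 78327781) also showed the widest shift between transcripts. Aldoc-201 held 93.4% of the counts in cKO and 96.7% in WT. Aldoc-202 begins at an internal start, 78324200, and has the same 1089 coding bases. It had 2712 counts in cKO and 445 in WT, or 6.20% of the gene in cKO (Wilson interval 5.89% to 6.53%) and 1.42% in WT (upper limit 1.62%), a ratio 4.74-fold higher in cKO (log2 2.25, interval 2.04 to 2.46). Aldoc-204, a noncoding transcript, was listed with 0 counts in cKO and 432 in WT, 92.5-fold lower in cKO with the cKO library set to the floor of 3 fragments. The interval, which also takes in the counting error of WT, reaches up to -6.22 on the log2 scale. The first exon of Aldoc-204 begins at 78324326 and lies inside the first exon of Aldoc-202, so reads there can be given to either by the authors' estimate. Summed, these 2 transcripts had 2712 counts in cKO and 877 in WT, or 6.20% of the gene in cKO and 2.80% in WT, with a log2 ratio of 1.27 (interval 1.11 to 1.43). On the authors' TPM, the difference was smaller, at 66.5 TPM in cKO and 42.4 TPM in WT. Reads of the sequence that Aldoc-202 shares with Aldoc-201 are divided by the same estimate. The intervals do not cover the error of that division, so the sum does not settle the level of internal-start RNA. The Aldoc transcripts other than Aldoc-201 are under 10% of the gene and were named after their values were seen.

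The bases before both starts of Aldoc are shown because the transcripts that differ in share begin at different places. They come from RefSeq (GRCm38.p6, plus strand, 5′ to 3′). The first is chr11:78322823-78322967, the 145 bases before the first exon of Aldoc-201. The second is chr11:78323948-78324197, the 250 bases before the RefSeq start nearest to that of Aldoc-202. These 250 bases lie in the first intron of Aldoc-201, and 136 of them are exon in a noncoding Aldoc transcript. Capitals mark matches on either strand to TTGGC, a core motif of nuclear factor I (read as GCCAA on the other strand), or to TTCNNNGAA, the form of a STAT site.
Aldoc, before the outer start: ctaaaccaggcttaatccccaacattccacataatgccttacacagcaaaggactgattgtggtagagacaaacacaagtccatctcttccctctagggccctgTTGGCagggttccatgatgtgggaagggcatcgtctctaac
Aldoc, before the inner start: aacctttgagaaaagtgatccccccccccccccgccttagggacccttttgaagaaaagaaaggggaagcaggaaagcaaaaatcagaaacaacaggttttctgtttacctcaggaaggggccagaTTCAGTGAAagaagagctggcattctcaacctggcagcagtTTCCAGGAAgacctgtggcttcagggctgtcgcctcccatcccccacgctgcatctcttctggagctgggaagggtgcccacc

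The outer stretch holds 1 match to TTGGC and the inner one 2 to TTCNNNGAA. Nuclear factor I and STAT3 are factors of astrocyte development, which is why their motifs were searched, with TATAAA and the SOX motif ACAAAG beside them. In the 250 bases upstream of 32851 RefSeq starts, TTGGC was found in 41.5%, TTCNNNGAA in 7.02%, TATAAA in 12.4% and ACAAAG in 16.5%. The RefSeq starts used here gave 11 such windows for 9 of the 10 genes, with none for Aqp4. Of these windows 6 held TTGGC, 2 held TTCNNNGAA, 2 held TATAAA and 0 held ACAAAG. Those with TTGGC include windows that do not precede the start of the main transcript. The window of Slc1a2 and that of Slc4a4 at 89027966 precede internal starts with few counts. The other Slc4a4 window lies inside an exon. A match is a string of letters and was not tested as a binding site.

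S100b and Fgfbp3 were the lowest of the 10 genes. S100b encodes a calcium-binding protein of astrocytes that is also found in oligodendrocytes and ependymal cells. It had 5744 counts in cKO and 6170 in WT, although the cKO library was the deeper one, and its level was 104 CPM in cKO and 144 CPM in WT. The log2 ratio of -0.47 (interval -0.54 to -0.39) is 1.38-fold lower in cKO, and 6.13% of measured genes had a lower ratio. S100b (ENSMUSG00000033208) lies on the plus strand of chromosome 10, at 76253853 to 76261159, with the 1 transcript S100b-201 of 276 coding bases. Markers of mature oligodendrocytes were lower in the same libraries: 15 of 16 met the 1.5-fold rule, none was at 0, and their summed level was 9015 CPM in cKO and 18515 CPM in WT. Of all measured genes, 3.39% were lower by the rule. Ependymal markers summed to 41.4 CPM in cKO and 44.5 CPM in WT, with 1 of 9 measured markers, Mia, lower by the rule. Sntn was under the floor in both libraries, with 0 counts in cKO and 2 in WT. The part of either cell type in the value of S100b was not tested.

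Fgfbp3 encodes a secreted protein that binds fibroblast growth factors. It had 327 counts in cKO and 362 in WT, or 5.93 CPM in cKO and 8.44 CPM in WT. The log2 ratio was -0.51 (1.42-fold lower in cKO), with an interval of -0.82 to -0.19 that reaches past 1.5-fold, so the counts do not settle on which side of that limit the ratio lies. In these libraries 5.15% of measured genes had a lower ratio. Fgfbp3 (ENSMUSG00000047632, chromosome 19, minus strand, 36917550 to 36919615) has the 1 transcript Fgfbp3-201, of 2 exons and 1772 nt. Its relative Fgfbp1 had 360 counts in cKO and 316 in WT and a log2 ratio of -0.17 (interval -0.49 to 0.14).

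The bases before the starts of S100b, Fgfbp3 and Slc1a3 are shown as those of the genes at the ends of the range of ratios (RefSeq, GRCm38.p6, 5′ to 3′ on the gene's strand). They are chr10:76253586-76253835 on the plus strand, chr19:36919616-36919849 on the minus strand and chr15:8710808-8711057 on the minus strand. Capitals mark the same motifs as for Aldoc, and also TATAAA, read as TTTATA on the other strand.
S100b: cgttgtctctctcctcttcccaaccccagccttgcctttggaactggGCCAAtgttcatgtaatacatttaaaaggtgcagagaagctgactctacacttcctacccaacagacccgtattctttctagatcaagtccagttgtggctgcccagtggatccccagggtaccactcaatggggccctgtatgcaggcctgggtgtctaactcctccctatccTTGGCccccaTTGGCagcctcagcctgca
Fgfbp3: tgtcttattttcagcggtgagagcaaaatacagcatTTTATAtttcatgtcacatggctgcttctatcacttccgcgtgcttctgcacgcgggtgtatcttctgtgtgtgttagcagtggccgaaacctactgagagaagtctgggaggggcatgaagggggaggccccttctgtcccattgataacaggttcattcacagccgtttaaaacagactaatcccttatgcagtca
Slc1a3: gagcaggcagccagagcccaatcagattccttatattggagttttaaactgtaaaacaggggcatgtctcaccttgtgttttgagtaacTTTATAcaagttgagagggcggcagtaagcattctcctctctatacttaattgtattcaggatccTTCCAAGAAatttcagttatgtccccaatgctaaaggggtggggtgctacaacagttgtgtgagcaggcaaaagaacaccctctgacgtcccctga

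The window of S100b holds 3 matches to TTGGC. That of Fgfbp3 holds 1 to TATAAA, 214 bases before the start, and that of Slc1a3 holds 1 to TATAAA and 1 to TTCNNNGAA. None of the 3 windows holds ACAAAG.

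The wider set of astrocyte genes was also centred near a ratio of 0. Of 44 other astrocyte genes, all measured, 0 were higher and 2 lower by the 1.5-fold rule (2.46% and 3.39% of measured genes were higher and lower). Their median was -0.07, with 15 above 0 and 29 below, where 52.3% of measured genes were above 0. The highest ratio, of Cyp4f14, a gene of 85 counts in cKO and 41 in WT, had an interval that held 0 (0.69, interval -0.09 to 1.55) and is named after its value was seen. The 2 past the rule were Apoe, the main lipid carrier of the nervous system, with 1088 CPM in cKO and 1856 CPM in WT (log2 ratio -0.77, interval -0.79 to -0.75), and Chrdl1, a secreted BMP antagonist, with 5.86 CPM in cKO and 8.83 CPM in WT (-0.59, interval -0.90 to -0.28). Apoe is also known from microglia, whose 10 markers had a median of -0.10 with 1 lower by the rule and summed to 265 CPM in cKO and 272 CPM in WT; their part was not tested. By mean level Apoe was second among the 44. Sparcl1, a secreted protein of synapse formation, stood above it at 3377 CPM in cKO and 3111 CPM in WT (0.12), and Slc6a11, a GABA transporter, stood next below it at 1368 CPM in cKO and 1207 CPM in WT (0.18).

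**Figure D4:**
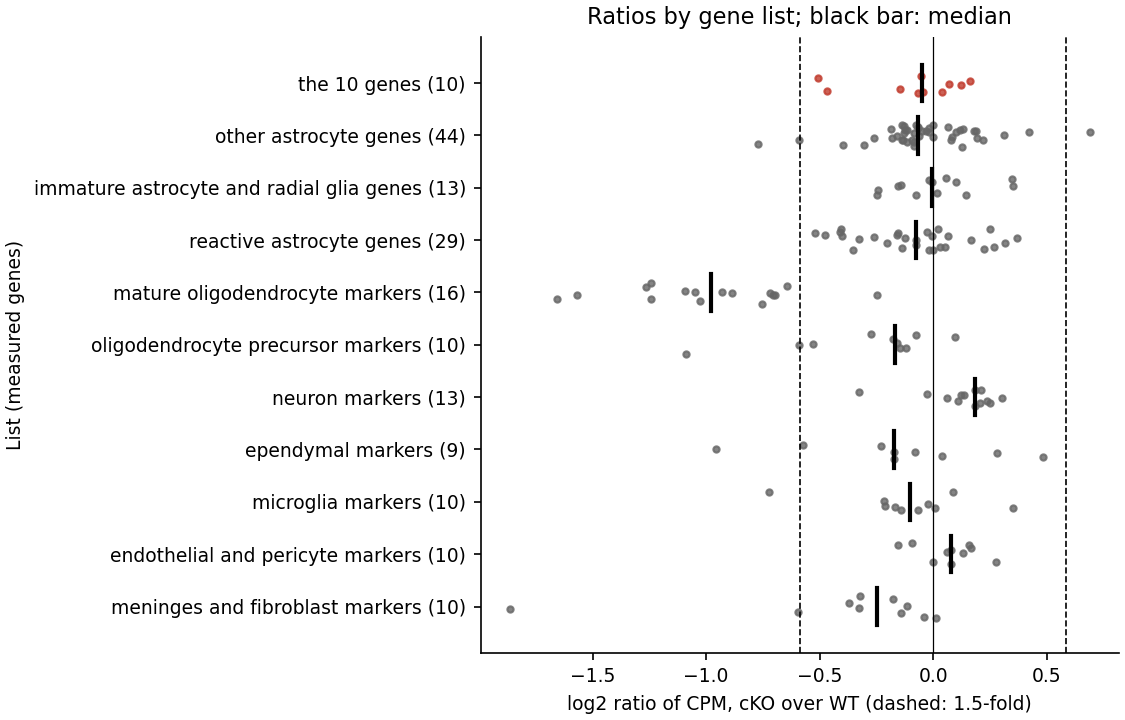
Horizontal axis, log2 ratio of CPM of cKO over WT for each measured gene of a list, with black bars for list medians and dashed lines for 1.5-fold. The 10 astrocyte genes (red, median -0.05) and the other astrocyte genes (median -0.07) straddle 0, while the mature oligodendrocyte markers (median -0.98) lie to the left.

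Partners of the 10 genes in their pathways are set beside the 2.46% of measured genes that were higher and the 3.39% that were lower by the 1.5-fold rule. A ratio above 0 was found in 52.3% of measured genes. In the glutamate and glutamine cycle, 1 of 21 other genes was higher and 0 lower, with 14 above and 7 below 0 and a median of 0.08. The gene past the rule was Slc17a7, a vesicular glutamate transporter of neurons, on 208 counts in cKO and 105 in WT (log2 ratio 0.62, interval 0.14 to 1.15). Glud1 (0.01) and Got2 (0.09), mitochondrial enzymes of glutamate breakdown, and Slc17a6 (0.11), the other main vesicular transporter, were the most abundant. Slc1a4, a neutral amino acid transporter of the same family as GLT-1 and GLAST, was at 0.23 and Slc1a1, the neuronal glutamate transporter, at -0.17. In the endfoot complex, which anchors Aqp4 at vessels, 0 of 19 other genes met the rule and the median was 0.00. Among its abundant members, Atp1b2, a subunit of the sodium pump, was at 0.00 and the matrix protein gene Agrn at 0.09.

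Among genes of bicarbonate and pH, 1 of 17 measured was higher by the rule and 0 were lower, with a median of 0.10. This was Slc4a8, a sodium-driven chloride bicarbonate exchanger of neurons, with 118 CPM in cKO and 63.0 CPM in WT (log2 ratio 0.91, interval 0.82 to 1.00). The abundant Slc4a10, Slc4a3 and Slc16a1 were at 0.11, 0.22 and -0.02. Folate and one carbon genes, the pathway of Aldh1l1, had a median of -0.04, with 1 of 21 measured higher and 0 lower. The member past the rule was Mthfs, on 229 counts in cKO and 118 in WT (0.59, interval 0.12 to 1.07), and the abundant Gcsh, Mthfd1 and Gart were at 0.00, -0.24 and 0.05.

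Filament and S100 genes are the families of Gfap and S100b. They are set beside the same 2.46% of measured genes higher and 3.39% lower by the 1.5-fold rule, and the 52.3% with a ratio above 0. Of 11 other intermediate filament genes, 8 had a ratio above 0 and 3 below, with a median of 0.16, and only Des, the filament of muscle, passed the rule (71 counts in cKO and 115 in WT, log2 ratio -1.06). The most abundant were the neurofilament genes Nefl (0.13), Nefm (0.26) and Nefh (0.21) of neurons. Further from 0, yet inside the limit, were Synm and Sync. Synm had 44.3 CPM in cKO and 64.0 CPM in WT (-0.53, interval -0.64 to -0.42). Sync had 5.48 CPM in cKO and 3.66 CPM in WT (0.58, interval 0.19 to 1.00). Both are named after their values were seen. In the S100 list, which also holds S100pbp, a binding partner of an S100 protein, 10 of 11 other measured genes had a ratio below 0, 2 of them lower by the rule, with a median of -0.29. The 2 were S100a8 (18 counts in cKO and 72 in WT) and S100a9 (56 counts in cKO and 140 in WT), which are proteins of neutrophils. S100a16, S100a1 and S100pbp, the most abundant, were at -0.36, -0.29 and -0.36.

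None of the measured genes that mark immature or reactive astrocytes passed the rule, which 5.84% of all measured genes passed. Of 13 genes of immature astrocytes and radial glia other than Slc1a3, 0 were higher or lower by the rule, and the median was 0.00. Fabp7, the lipid-binding protein of radial glia, stood at 250 CPM in cKO and 297 CPM in WT (log2 ratio -0.25), Ptprz1 was at 0.00 and Igfbp5 at 0.14. Of 32 genes of reactive astrocytes other than Gfap, 29 were measured, 0 met the rule in either direction, and the median was -0.07. Of the 29, 11 lay above 0 and 18 below, where 52.3% of all measured genes lay above 0. Lcn2, a reactive gene under the limit of 1 CPM and named after its value was seen, had 30 counts in cKO and 56 in WT (log2 ratio -1.26, interval -2.27 to -0.31). Their most abundant members were Vim (-0.07), the filament partner of Gfap, the signalling factor Stat3 (0.02) and the class I histocompatibility gene H2-D1 (0.05). The transcription factor and signal genes of astrocyte development had a median of 0.02, with 0 of 28 past the rule, and Nfix, Fgfr3 and Bmpr1a were at -0.03, 0.13 and -0.10.

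**Figure D5:**
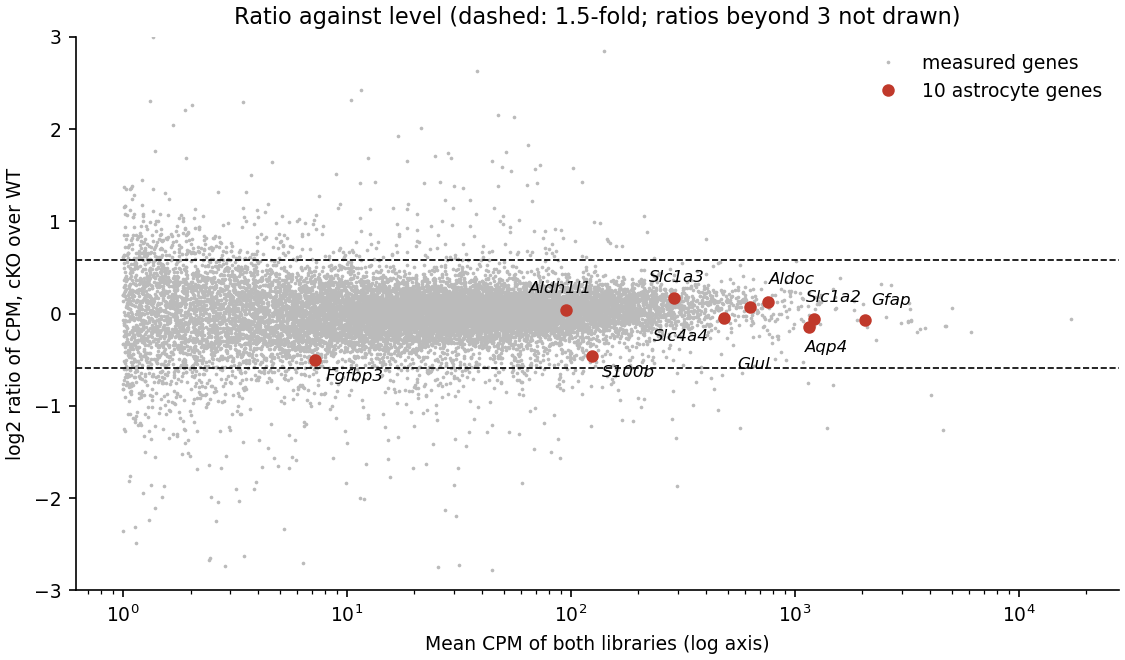
Horizontal axis, mean CPM of both libraries (log axis), and vertical axis, log2 ratio of cKO over WT, for the 15917 measured genes (grey) and the 10 astrocyte genes (red), with dashed lines at 1.5-fold. The red points lie within the lines, and 38 grey points lie beyond the vertical axis.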

How the data were processed

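RNA of whole spinal cord from 1 library of cKO and 1 of WT mice was analysed. Per the submitters' processing notes, CASAVA, Bowtie2 2.3.2 and GRCm38.p6 were used, without their roles. Counting tool, annotation and strand setting: not given in the sources used here. Per gene and per transcript the authors deposited estimated counts, TPM and FPKM, per the file headers. The estimated counts are whole numbers that the authors' estimate appears to have rounded up: 98.9% of low transcripts in cKO and 98.9% in WT equalled the product of FPKM, length and a constant, rounded up (within 0.1), and in single-transcript genes these products lay near even numbers more often (32.5% in cKO, 34.4% in WT) than near odd ones (19.3% in cKO, 17.8% in WT). Intervals therefore use fragments, each set to 2 counts.

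Counts were scaled with TMM factors (0.9994 for cKO and 1.0006 for WT) from edgeR 4.0.16 in R 4.3.3 and expressed as CPM. No test was run because neither group has a second library. Ratios have no pseudocount, a count of 0 was set to 3 fragments, and exact and Wilson intervals were made with scipy 1.17.1 (Python 3.11.15). Tables used pandas 2.3.3 and numpy 2.4.6, and plots matplotlib 3.10.9. The code that computes ratios and intervals was tested on simulated data, which is no test of the samples. Transcript names, exons and coding sequence come from GENCODE M21. PCR copies are not independent molecules, so floors and intervals cover only the error of counting. The genes and lists were chosen with earlier results of these data known. Named were the 10 genes, their transcripts with at least 10% of counts, and from each list up to 6 genes past the rule and up to 3 of highest level. Transcripts under 10% of a gene, Fgfbp1, Cyp4f14, Lcn2, Map2, Synm and Sync fall outside that rule and were chosen after their values were seen. Alternatives were other scalings, TPM or FPKM on a log2 scale with a pseudocount, other filters and other fold limits. Some items are not reported here.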

Additional observations from a re-analysis of the deposited data

How the results depend on the processing

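The 10 ratios were recomputed under 7 other scalings and units, and 0 of them reached 1.5-fold under any. Of the 70 values, 58 lay inside the counting interval of the ratio given above. The sign changed for Slc1a2 and Slc4a4, both on the authors' TPM with either pseudocount. There the median of the 10 genes was 0.0155 with a pseudocount of 0.1 or 1, against -0.05, and the median of all measured genes moved up by 0.05. S100b ranged from -0.47 to -0.43, and Fgfbp3 from -0.52 to -0.43. With a limit of 0.32 on the log2 scale, 2 of the 10 genes were lower, and 990 measured genes were higher and 1244 lower. At 2-fold these were 130 and 183, without a filter 657 and 826, and with a filter of 5 CPM 190 and 306. On TPM, 532 genes were higher and 519 lower with a pseudocount of 0.1, and 327 and 354 with 1, against 391 and 539 on CPM. Over the other lists, 3 genes were higher and 26 lower by the rule, and 1 and 20 with the filter of 5 CPM. Of 144 list medians, 138 moved by less than 0.1. Intervals on counts as deposited took the same number of the 10 genes, 0. No paired analysis was possible because each group has 1 library, and for the same reason no replicate could be left out. Depth limits Fgfbp3 most, with 164 fragments in cKO and 181 in WT.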

Other observations

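Markers of the other cells of the cord were set beside the astrocyte genes. By the 1.5-fold rule, 2.46% of all measured genes were higher and 3.39% lower, and 52.3% had a ratio above 0. The 13 neuron markers had a median log2 ratio of 0.18, with 11 above 0, 2 below and 0 past the 1.5-fold rule. Tubb3, Nefl and Stmn2, the most abundant of them, were at 0.25, 0.13 and 0.12. Map2, at 701 CPM in cKO and 878 CPM in WT, went the other way (-0.32, interval -0.35 to -0.30). It is named after its value was seen. The 10 precursor markers had a median of -0.17, with Neu4 (-1.09) and Sox10 (-0.59) lower by the rule and the abundant Pdgfra and Lhfpl3 at -0.07 and -0.27. Mature oligodendrocyte markers had a median of -0.98, with 0 of 16 above 0.

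Endothelial and pericyte markers, cells that astrocyte endfeet touch, had a median of 0.08 and 0 of 10 past the rule, with Rgs5, Cldn5 and Flt1 at 0.00, 0.13 and 0.16. Meningeal and fibroblast markers had a median of -0.25 and a summed level of 3192 CPM in cKO and 3877 CPM in WT. By the rule, 2 of 10 were lower, Igf2 (-1.87) and Ogn (-0.60), as were 3.39% of all measured genes.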
